A study of Mus musculus with 6 samples.

Results

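The genes described here are 34 genes of mitochondrial and peroxisomal fatty acid oxidation and of its transcriptional control by PGC-1alpha (Ppargc1a), taken by name from an expression table of 22061 named mouse genes. All 34 were found, on 37 probe sets, and a gene with several is read from its brightest one over the 6 arrays. RNA came from MCT cells, a proximal tubular epithelial line first isolated from the kidney cortex of SJL mice. All cells were kept overnight without serum, and then received the TNF family cytokine TWEAK at 100 ng/mL or vehicle for 6 h, with 3 arrays per group that the series calls independent experiments. The values are log2 intensities after RMA, and both groups are a single immortal line in culture, with no animal or other line beside it.

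Beta-oxidation shortens fatty acids by a pair of carbons per turn and is the main fuel route of the proximal tubule in the kidney. Fatty acids are activated to acyl-CoA, pass into mitochondria on carnitine, and are then cut by a cycle of dehydrogenation, hydration, a further oxidation and thiolysis, with the electrons handed to the respiratory chain. PPAR nuclear receptors with their partner RXR, the estrogen-related receptor ERRalpha and the coactivators of the PGC-1 family switch on many of these genes.

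After 6 h of TWEAK, Cpt1a and Acadm fell and Ppard rose. Cpt1a, which makes the acyl-carnitine that enters mitochondria, fell to 49.0% of its control level, by 1.03 on the log2 scale (SE 0.13, limma's Benjamini-Hochberg adjusted p = 0.0209). Acadm, the medium-chain acyl-CoA dehydrogenase, fell to 58.0% of control, by 0.79 (SE 0.14, adjusted p = 0.0373 in limma). Ppard, the nuclear receptor PPARdelta, rose 1.5-fold, by 0.58 (SE 0.09, adjusted p = 0.0271 in limma). The other 31 genes did not pass the test. In RNA from a whole culture, fewer cells with a transcript and less of it per cell cannot be told apart.

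Passing the test means a Benjamini-Hochberg adjusted p under 0.05 over all 22061 genes. The 3 calls are 8.82% of the 34 genes, and 3.00% of all genes were called. By direction, 1.71% of all genes were called lower and 1.28% higher, 378 and 283 genes, a split that became 269 and 308 with each array centred on its median and 69 and 183 after cyclic loess. At an unadjusted p under 0.05 in limma, 14 of the 34 were lower and 1 was higher, against 13.1% and 8.15% of all genes. A separate fit of the 11030 genes brighter than the median gene held 31 of the 34. There 13 of the 31 were lower at that p (41.9%), against 20.9% of these brighter genes, and 5 were called, against 9.25%. All TWEAK arrays lay below all control arrays for 11 of the 34 genes and above them for 1, against 13.5% and 12.9% of all genes. Lower without overlap and by at least 0.5 were 5 of the 34, Cpt1a, Acadm, Ppargc1a, Tfam and Etfdh, against 5.15% of all genes. The median difference was -0.08 over the 34 genes and 0.03 over all genes. For scale, an exact permutation test of 3 arrays against 3 cannot give a p below 0.1.

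These 3 calls depended on which arrays were kept. Without control 2, control 3, TWEAK 1 or TWEAK 3, limma called 0 of the 34 genes, with 10, 8, 8 and 12 lower at an unadjusted p under 0.05. Without TWEAK 2 it called 2 of them, Cpt1a at an adjusted p of 0.0177 and Ppard at 0.0473, and Acadm was at 0.0520. Without control 1 it called 9, adding Ppargc1a, Tfam, Sirt1, Hadhb, Etfa and Etfdh, all lower. Calls over all genes moved as well: they were 8.5% without control 1, 0.993% without TWEAK 2, and 0.00453% to 0.286% in the 4 fits with no call among the 34. Over the 6 fits with an array left out the Cpt1a difference ranged from -1.16 to -0.93, that of Acadm from -0.91 to -0.65 and that of Ppard from 0.54 to 0.62. In the authors' deposited table, which adjusts over all probe sets, the false discovery rate was 0.0440 for Cpt1a, 0.0470 for Ppard and 0.0630 for Acadm.

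**Figure D1:**
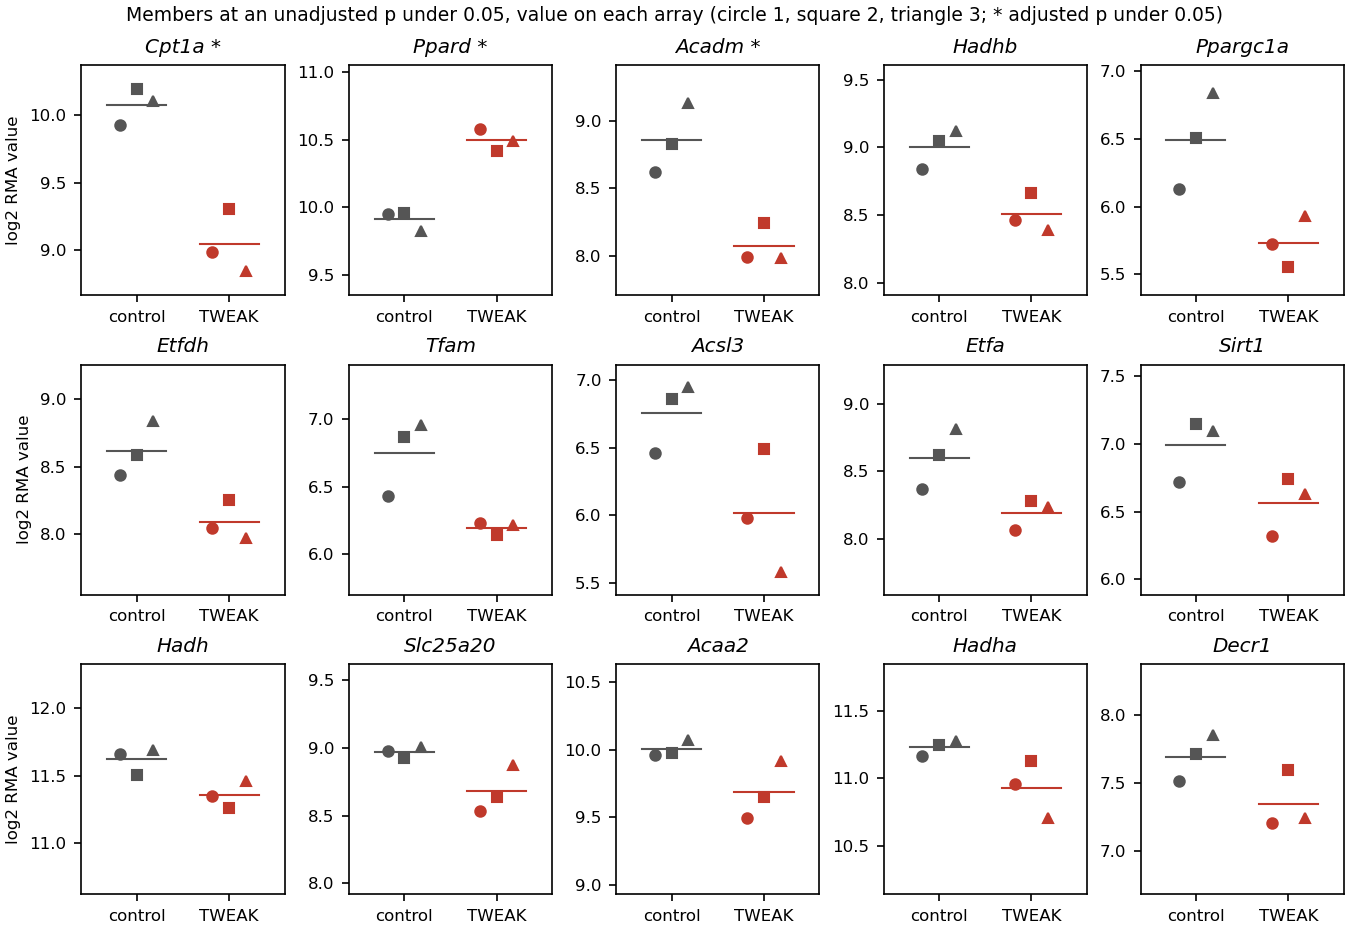
Log2 RMA value on each array (y axis, the same span of 1.7 in each panel) for the 15 genes at an unadjusted p under 0.05 in limma, ordered by p. Grey marks are control and red marks TWEAK arrays, circles, squares and triangles are arrays 1, 2 and 3, bars are group means, and an asterisk marks an adjusted p under 0.05. The groups are farthest apart in Cpt1a, where the lowest control array lies 0.62 above the highest TWEAK array.

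Promoter windows are shown for the 3 genes that passed the test and for Hadhb, whose neighbour Hadha starts on the other strand. They are RefSeq sequences of build GRCm38.p6, from 250 bases before to 50 after a transcript start, in the direction of the gene, with capitals on any match to the motifs searched. The Cpt1a window follows a start 975 bases inside the outermost start that RefSeq gives the gene, while the other 3 windows follow the outermost start. The build of the array annotation is not given in the sources used here.
Cpt1a, chr19:3323051-3323350, plus strand: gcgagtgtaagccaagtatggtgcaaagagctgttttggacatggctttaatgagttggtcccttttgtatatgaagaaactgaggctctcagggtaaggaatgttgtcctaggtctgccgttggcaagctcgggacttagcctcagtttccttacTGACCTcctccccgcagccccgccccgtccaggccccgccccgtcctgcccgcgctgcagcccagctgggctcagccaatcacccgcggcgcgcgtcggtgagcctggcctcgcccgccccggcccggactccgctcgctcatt
Acadm, chr3:153944594-153944893, minus strand: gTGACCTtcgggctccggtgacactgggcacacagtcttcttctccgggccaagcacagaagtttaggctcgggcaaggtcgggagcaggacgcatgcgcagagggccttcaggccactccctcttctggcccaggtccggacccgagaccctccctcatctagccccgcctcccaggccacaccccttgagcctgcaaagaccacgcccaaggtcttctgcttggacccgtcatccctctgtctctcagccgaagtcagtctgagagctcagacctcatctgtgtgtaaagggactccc
Hadhb, chr5:30155003-30155302, plus strand: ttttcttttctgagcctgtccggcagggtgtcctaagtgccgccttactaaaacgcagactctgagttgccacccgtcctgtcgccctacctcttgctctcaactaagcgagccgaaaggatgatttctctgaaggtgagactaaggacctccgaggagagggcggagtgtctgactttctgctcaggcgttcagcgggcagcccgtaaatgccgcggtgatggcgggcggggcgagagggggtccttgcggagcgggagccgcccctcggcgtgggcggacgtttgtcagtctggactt
Ppard, chr17:28232504-28232803, plus strand: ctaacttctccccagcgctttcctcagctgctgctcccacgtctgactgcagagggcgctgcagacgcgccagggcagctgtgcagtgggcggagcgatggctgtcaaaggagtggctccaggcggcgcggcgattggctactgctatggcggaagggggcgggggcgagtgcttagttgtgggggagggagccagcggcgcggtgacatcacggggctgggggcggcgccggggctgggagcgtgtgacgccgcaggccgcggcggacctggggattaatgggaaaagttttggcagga
The capitals in Cpt1a and Acadm are the half-site of nuclear receptors, AGGTCA, read on the other strand, and the Hadhb and Ppard windows held no match.

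Windows were used for 31 of the 34 genes, 35 windows in all, and none for Ppargc1b, Acaa2 and Decr1. The search of the 34 genes left out chromosome 18, where Ppargc1b and Acaa2 lie, and that of all windows had no such filter. Both strands were searched. AGGTCA stood in 6 of the 35 windows (17.1%), those of Cpt1a, Acadm, Acadvl, Echs1, Rxra and Cd36, and in 16.3% of 32851 mouse promoter windows of the same length. The palindromic motif of nuclear respiratory factor 1 stood in the windows of Etfdh, Etfb and Ppara, 8.57% of the 35 against 4.60% of all. None of the 35 held the ERR element TNAAGGTCA (1.28% of all windows) or the direct repeat of AGGTCA with 1 base between (0.0396%). The cyclic AMP response element TGACGTCA stood in 0 of the 35 (1.79% of all windows). For NF-kB only 1 fixed spelling of its site was searched, with no variable base. It stood in 0 of the 35 (0.155% of all windows), and other spellings of the site were not searched. The half-site AGGTCA lies within both the ERR element and the direct repeat, so these searches overlap. A match describes these letters only.

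Among the coactivators, Ppargc1a read 6.13, 6.50 and 6.84 on control arrays 1, 2 and 3 and 5.72, 5.55 and 5.93 on the TWEAK arrays. PGC-1alpha, its product, is the best known coactivator of mitochondrial and fatty acid oxidation genes. Every TWEAK array was below every control array, and the control arrays were spread by 0.71. The difference was -0.76 (SE 0.18), 59.1% of the control level, and limma's adjusted p was 0.0596. Without control 1 the difference was -0.94 and passed at 0.0173, and without control 3 it was -0.59 at 0.133. With all arrays and limma's trend and robust eBayes its adjusted p was 0.0477. This probe set is annotated to a non-coding transcript of the gene. The probe set of the coding transcript read 4.03, 4.50 and 4.91 in control and 3.60, 3.62 and 3.87 under TWEAK, a difference of -0.79, near or below the lower quartile of the arrays, 4.65 to 4.73. Its paralogue Ppargc1b differed by 0.09 (95% interval -0.15 to 0.34), with values of 6.30 to 6.55 in control and 6.40 to 6.68 under TWEAK.

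Of the nuclear receptors, Ppard read 9.95, 9.96 and 9.82 on the control arrays and 10.58, 10.41 and 10.49 on the TWEAK arrays, so that the groups were 0.45 apart. PPARdelta is the widely expressed member of the PPAR family and, like PPARalpha, induces fatty acid oxidation genes. Ppara, the member best known for this in liver and kidney, read 6.04, 5.89 and 5.84 in control and 5.91, 5.91 and 5.84 under TWEAK, a difference of -0.04 (95% interval -0.24 to 0.16). The shared partner Rxra differed by 0.08 (-0.12 to 0.28), ERRalpha's gene Esrra by 0.08 (-0.15 to 0.31) and nuclear respiratory factor 1, Nrf1, by 0.08 (-0.13 to 0.30). The groups overlapped for each of these 4.

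Tfam, which packages mitochondrial DNA and starts its transcription, read 6.43, 6.87 and 6.96 in control and 6.23, 6.15 and 6.22 under TWEAK. The TWEAK arrays were all lower and close together (SD 0.05), while the control arrays had an SD of 0.28. The difference was -0.55 (SE 0.14, limma's adjusted p = 0.0669), and -0.71 without control 1 with an adjusted p of 0.0137. Of the NAD-dependent deacetylases, Sirt1, which acts on PGC-1alpha, read 6.72, 7.15 and 7.10 in control and 6.32, 6.74 and 6.63 under TWEAK. The groups overlapped, since TWEAK 2 lay just above control 1, and the difference was -0.43 (SE 0.15, limma's adjusted p = 0.145), or -0.56 at an adjusted p of 0.0465 without control 1. A dimmer Sirt1 probe set differed by 0.19, and the mean of both by -0.12. Sirt3, the mitochondrial deacetylase, was at 7.78 in both groups (95% interval of the difference -0.25 to 0.25).

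Fatty acid uptake and activation came next in the route. Cd36, a fatty acid transporter of the cell surface, was dim, between 3.59 and 3.74 on all arrays, below the arrays' lower quartiles, so a change could go unseen. Acsl3, an acyl-CoA synthetase of the endoplasmic reticulum and lipid droplets, read 6.46, 6.86 and 6.94 in control and 5.98, 6.49 and 5.58 under TWEAK. TWEAK 2 lay above control 1, and the difference of -0.74 (SE 0.22) did not pass limma's test at an adjusted p of 0.105. The synthetase genes Acsl1 and Acsl5 differed by 0.06 (-0.19 to 0.31) and -0.24 (-0.59 to 0.11), with overlapping groups.

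Within the carnitine shuttle the genes of the 3 steps had different values. Cpt1a read 9.93, 10.19 and 10.11 on the control arrays and 8.99, 9.30 and 8.85 on the TWEAK arrays, with a control mean of 10.08 ± 0.14 and a TWEAK mean of 9.05 ± 0.23 (SD, n = 3). The groups were 0.62 apart, more than the range within either one, 0.26 and 0.46. Slc25a20, the carrier that exchanges acyl-carnitine for carnitine across the inner membrane, read 8.98, 8.92 and 9.01 in control and 8.53, 8.64 and 8.87 under TWEAK. All of its TWEAK arrays were lower, by as little as 0.05, and the difference of -0.29 (SE 0.10) had an adjusted p of 0.150 in limma. Cpt2, which returns the acyl group to CoA inside mitochondria, was within 9.55 to 9.65 in control and 9.58 to 9.68 under TWEAK, a difference of 0.05 with a 95% interval of -0.13 to 0.23.

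The acyl-CoA dehydrogenases start each turn of the cycle and differ in the chain length they take. Acadm read 8.62, 8.83 and 9.13 in control and 7.99, 8.25 and 7.99 under TWEAK, with means of 8.86 ± 0.26 and 8.07 ± 0.15 (SD, n = 3). The groups were 0.37 apart. The very-long-chain, long-chain and short-chain enzymes Acadvl, Acadl and Acads differed by -0.04 (-0.25 to 0.17), -0.10 (-0.31 to 0.11) and -0.01 (-0.31 to 0.29), each with overlapping groups. Acads was spread more among the control arrays, 10.42 to 10.86, than the groups differed. Whether Acadm differed from the other dehydrogenases was not tested.

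Electrons from these enzymes pass through the electron transfer flavoprotein, a dimer of Etfa and Etfb, to the membrane-bound oxidoreductase Etfdh. Etfdh read 8.44, 8.58 and 8.84 in control and 8.05, 8.26 and 7.97 under TWEAK. Etfa read 8.37, 8.62 and 8.81 in control and 8.07, 8.28 and 8.24 under TWEAK. Both had all TWEAK arrays below all control arrays, with differences of -0.53 (SE 0.13, limma's adjusted p = 0.0607) and -0.41 (SE 0.12, adjusted p = 0.106). Without control 1 both passed, at 0.0291 and 0.0331, with differences of -0.62 and -0.52. Etfb, the other subunit of the dimer, lay between 11.34 and 11.54 in control and between 11.32 and 11.61 under TWEAK, a difference of 0.04 (-0.20 to 0.27).

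Of the 6 genes of later steps, limma called 0, against 3.00% of all genes. At an unadjusted p under 0.05 in limma 5 were lower (83.3%, against 13.1% of all genes). Hadha and Hadhb encode the alpha and beta subunits of the mitochondrial trifunctional protein, which carries out the last 3 steps for long chains. Hadhb read 8.84, 9.05 and 9.12 in control and 8.46, 8.66 and 8.39 under TWEAK. Its difference was -0.50 (SE 0.11, limma's adjusted p = 0.0527), with an adjusted p of 0.0253 without control 1, and a further Hadhb probe set differed by -0.47. Hadha read 11.16, 11.25 and 11.28 in control and 10.96, 11.13 and 10.71 under TWEAK, a difference of -0.30 (SE 0.11, adjusted p = 0.179). In both genes all TWEAK arrays were lower, with a gap of 0.18 for Hadhb and 0.04 for Hadha.

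Hadh, the dehydrogenase of shorter 3-hydroxyacyl-CoA, read 11.66, 11.51 and 11.69 in control and 11.35, 11.26 and 11.46 under TWEAK. Acaa2, the mitochondrial thiolase of the last step, read 9.96, 9.97 and 10.07 in control and 9.49, 9.65 and 9.92 under TWEAK. Decr1, the reductase needed for unsaturated fatty acids, read 7.51, 7.71 and 7.85 in control and 7.20, 7.60 and 7.24 under TWEAK. The groups did not overlap for Hadh and Acaa2 and did for Decr1, and limma's adjusted p was 0.149, 0.162 and 0.184 with differences of -0.26 (SE 0.09), -0.32 (SE 0.12) and -0.35 (SE 0.13). Echs1, the short-chain hydratase, differed by -0.09 (-0.32 to 0.14).

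Peroxisomal enzymes shorten very long and branched fatty acids. The peroxisomal thiolase Acaa1a differed by 0.11 (-0.21 to 0.42) and the bifunctional enzyme Ehhadh by -0.07 (-0.26 to 0.11), with overlapping groups. Pdk4, a kinase that inhibits pyruvate dehydrogenase and a classical PPAR target, read 7.42, 7.48 and 7.94 in control and 7.54, 7.04 and 8.22 under TWEAK. Its TWEAK arrays were spread by 1.18, and the interval of its difference, -0.65 to 0.62, was wider than for any other of the 34 genes. Ucp2, an anion carrier of the inner membrane, differed by 0.13 (-0.07 to 0.32).

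**Figure D2:**
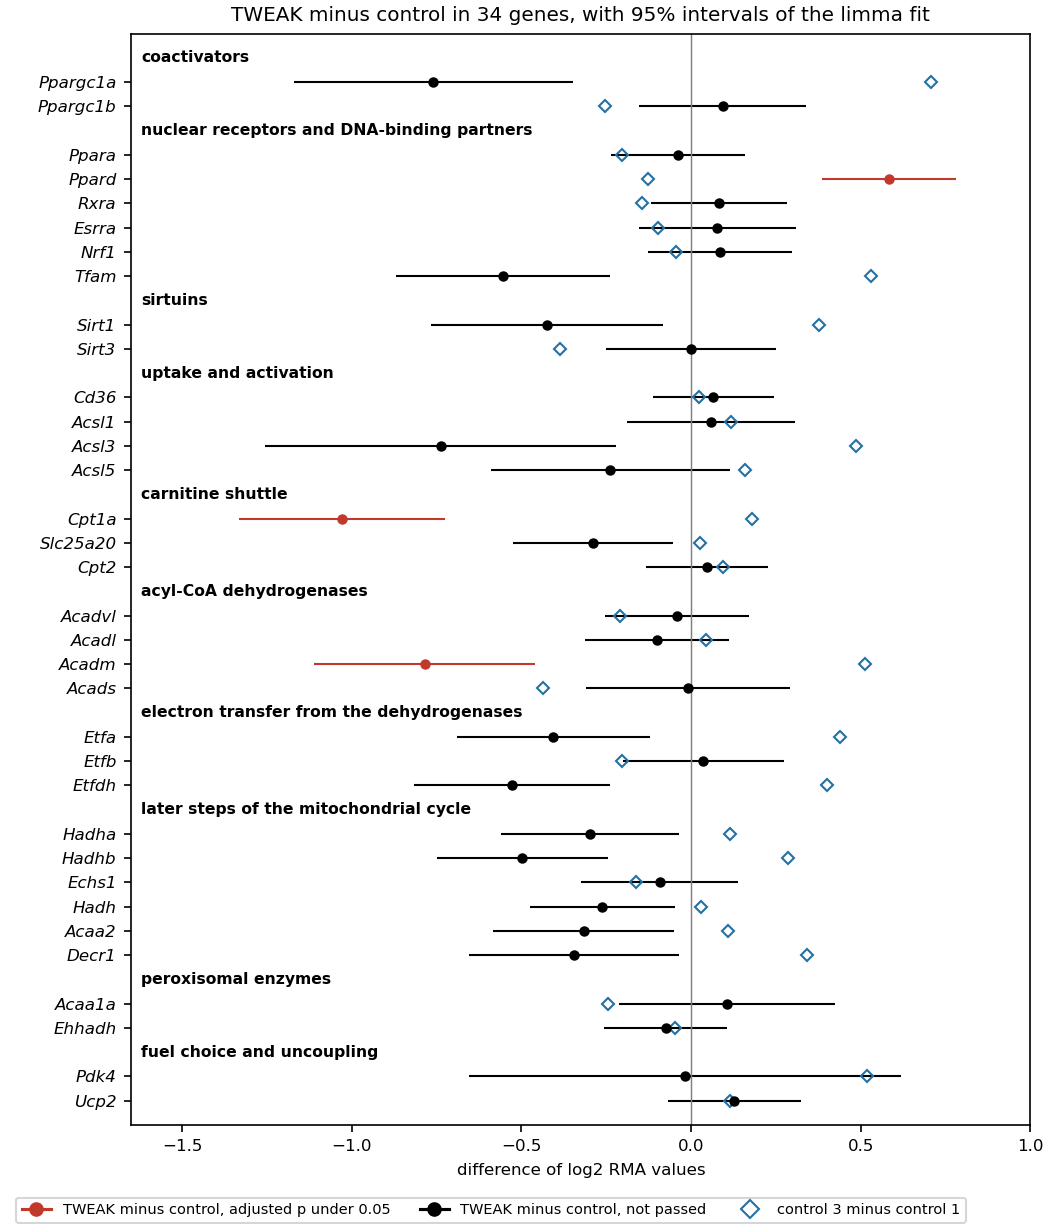
Differences of log2 RMA values (x axis) for the 34 genes, grouped by role (y axis). Filled circles are TWEAK minus control with 95% intervals of the limma fit, red where the adjusted p was under 0.05, and open diamonds are control 3 minus control 1, which shares its control arrays with the circles. Cpt1a at -1.03 and Ppard at 0.58 lie at the ends of the circles, and the diamonds run from -0.44 to 0.71.

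Untreated arrays differed from each other too. Control 3 minus control 1 ranged from -0.44 for Acads to 0.71 for Ppargc1a, with a median of 0.07 over the 34 genes and -0.07 over all genes. This difference and the TWEAK difference share control arrays, so the values are set side by side and no relation is drawn. Control 3 lay above control 1 for 21 of the 34 genes and for 37.9% of all genes. In the 14 genes lower at an unadjusted p under 0.05, control 3 minus control 1 ran from 0.03 to 0.71 and the TWEAK difference from -1.03 to -0.26, and what sets these control arrays apart was not tested. For Cpt1a control 3 minus control 1 was 0.18 beside a TWEAK difference of -1.03, and for Ppard it was -0.13 beside 0.58. For Acadm the pair was 0.51 and -0.79, for Tfam 0.53 and -0.55 and for Ppargc1a 0.71 and -0.76. For Etfa it was 0.44 and -0.41, so these untreated arrays were about as far apart as the groups. Over the 34 genes the TWEAK difference was the larger in size for 20, or 58.8%, and for 41.5% of all genes.

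Each array was then left out in turn. An unadjusted p under 0.05 in limma held in all 6 of these fits for 9 of the 15 genes: Cpt1a, Ppard, Acadm, Hadhb, Ppargc1a, Etfdh, Tfam, Acsl3 and Etfa. It was lost in at least 1 fit for Sirt1, Hadh, Slc25a20, Acaa2, Hadha and Decr1. The share of the 34 genes lower at that p was 41.2% with all arrays and 23.5% without control 3 or without TWEAK 1, where all genes gave 13.1%, 9.71% and 11.2%. With limma's array weights, which gave control 2 a weight of 5.60 and the others 0.530 to 0.945, 10 of the 34 passed, 9 of them lower, and 14.6% of all genes were called.

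**Figure D3:**
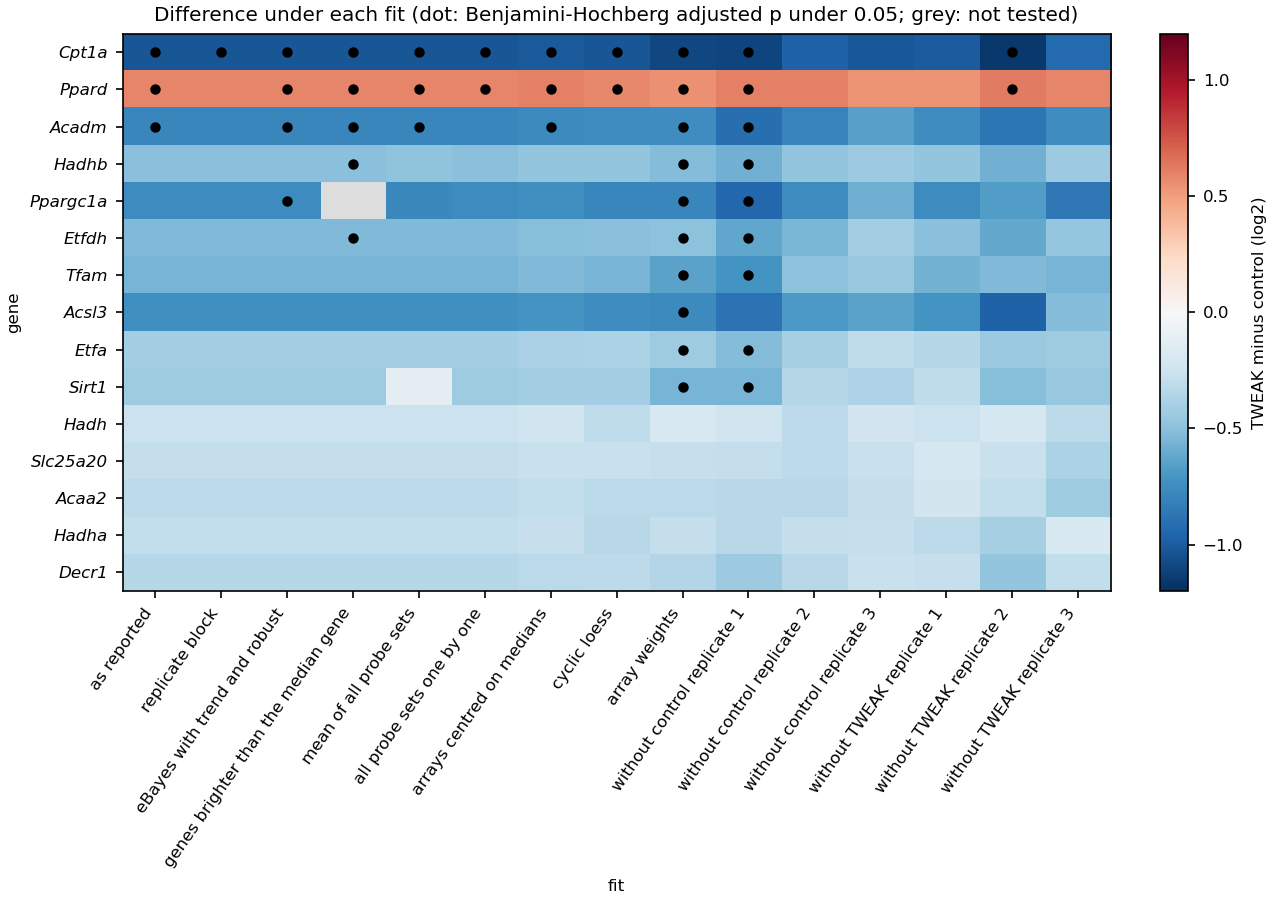
TWEAK minus control difference (colour, log2 scale) of the 15 genes at an unadjusted p under 0.05 (y axis) under the reported fit and each of 14 alternatives (x axis). Dots mark a limma adjusted p under 0.05 and grey a gene that was not tested. The colours keep their sign across fits, while the dots disappear in all 15 genes without control 2, control 3, TWEAK 1 or TWEAK 3.

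Other genes of the pathway were read from 7 lists, of which 163 genes were measured. In these, 5 genes were lower, 2 were higher and 156 did not pass limma's test, and 42 were lower and 14 higher at an unadjusted p under 0.05. These are 4.29% called, 25.8% lower and 8.59% higher, beside 3.00%, 13.1% and 8.15% of all genes. Among genes brighter than the median gene, 17 of 119 were called, against 9.25% of all such genes. The median difference over the 163 genes was -0.05. The count of 7 calls became 0 without control 2, control 3, TWEAK 1 or TWEAK 3, 4 without TWEAK 2 and 25 without control 1. Up to 3 genes of smallest p are named from each list.

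Among 31 other beta-oxidation enzymes and carnitine carriers, 3 were lower, 0 higher and 28 did not pass (median -0.16), and at an unadjusted p under 0.05 in limma 12 were lower (38.7%, against 13.1% of all genes) and 0 higher (8.15% of all genes). Acadsb, the dehydrogenase of short branched chains, fell by 0.93 (SE 0.14, limma's adjusted p = 0.0261). Acad11, a further acyl-CoA dehydrogenase, fell by 0.47 (SE 0.09, adjusted p = 0.0402), and Acsl4, the synthetase that prefers arachidonic acid, by 1.00 (SE 0.21, adjusted p = 0.0494). Without TWEAK 2, Acadsb and Acsl4 passed at 0.0457 each and Acad11 was at 0.0539, and none of these 3 passed without control 2, control 3, TWEAK 1 or TWEAK 3. Among 28 genes of the tricarboxylic acid cycle, pyruvate dehydrogenase and mitochondrial sirtuins, 1 was lower (median -0.15), and by unadjusted p 10 were lower (35.7%, against 13.1% of all genes) and 0 higher. That gene, the pyruvate dehydrogenase phosphatase Pdp1, fell by 0.89 (SE 0.17, limma's adjusted p = 0.0410) and passed, of the 6 fits with an array left out, only in the one without control 1. The dehydrogenase subunits Dld and Pdha1 differed by -0.97 (SE 0.22) and -0.68 (SE 0.15), at adjusted p of 0.0542 each.

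Among 38 partners and regulators of PGC-1, 1 was higher and 1 lower (median 0.00). By unadjusted p under 0.05 in limma 12 were lower and 8 higher, 31.6% and 21.1%, against 13.1% and 8.15% of all genes. Pprc1, the third member of the PGC-1 coactivator family, read 9.72, 9.54 and 9.45 in control and 10.25, 10.22 and 10.41 under TWEAK, a rise of 0.72 (SE 0.10, limma's adjusted p = 0.0246). Prkaa1, a catalytic subunit of the energy sensor AMPK, read 9.06, 9.20 and 9.26 in control and 8.51, 8.63 and 8.46 under TWEAK, and fell by 0.64 (SE 0.09, adjusted p = 0.0248). The groups did not overlap for either gene. Both passed without TWEAK 2 (0.0462 and 0.0434) and without control 1 (0.0136 and 0.0146), and neither passed without control 2, control 3, TWEAK 1 or TWEAK 3. The transcription factor Mef2d differed by 0.41 (SE 0.09, adjusted p = 0.0502).

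Of 22 PPARalpha targets outside beta-oxidation 1 was called, higher (4.55%, against 3.00% of all genes, median 0.00). At an unadjusted p under 0.05 in limma 3 were lower (13.6%) and 2 higher (9.09%), against 13.1% and 8.15% of all genes. The called gene Pnpla2, the lipase that opens stored triglyceride, rose by 0.48 (SE 0.10, limma's adjusted p = 0.0468). Of the 6 fits with an array left out, Pnpla2 passed only in that without control 1. The lipase inhibitor Angptl4 differed by 0.80 (SE 0.27, adjusted p = 0.140) with all TWEAK arrays higher, and the acyl-CoA thioesterase Acot2 by -0.68 (SE 0.15, adjusted p = 0.0522). Limma called 0 of 19 genes of fatty acid uptake and binding, with 0 at an unadjusted p under 0.05. Of these, Vldlr differed by -0.30 (SE 0.15) and Fabp4 by 0.14 (SE 0.09).

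Limma also called 0 of 15 genes of mitochondrial genome maintenance, while 4 were lower and 4 higher by unadjusted p alone, 26.7% each way against 13.1% and 8.15% of all genes. Mterf3, of the mitochondrial transcription termination factor family, differed by -0.56 (SE 0.12). The single-stranded DNA binding protein Ssbp1 differed by -0.63 (SE 0.17) and the matrix protease Lonp1 by 0.39 (SE 0.11). Of 11 uncoupling and antioxidant genes limma called 0, with 1 lower at an unadjusted p under 0.05 (9.09%, against 13.1% of all genes). That gene, catalase (Cat), differed by -0.53 (SE 0.16). Sod2, the superoxide dismutase of mitochondria, differed by 0.29 (SE 0.16) and the thioredoxin reductase Txnrd2 by 0.14 (SE 0.11).

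**Figure D4:**
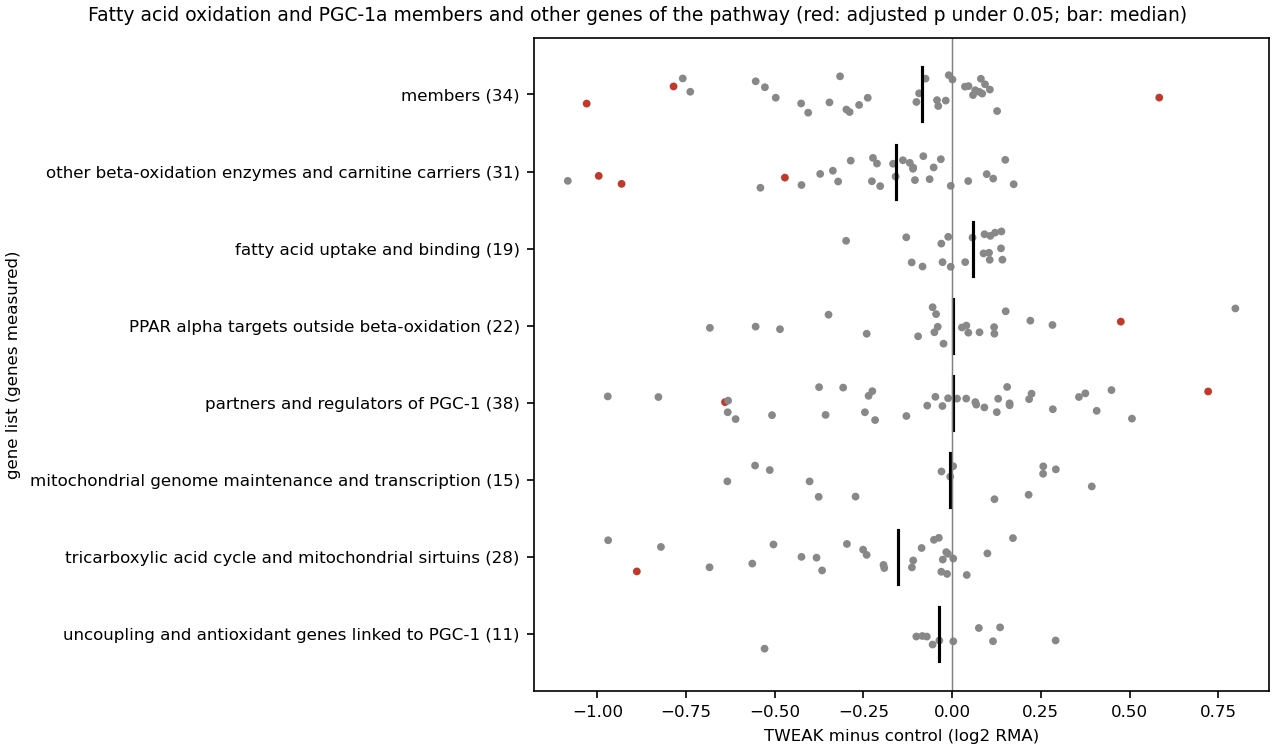
TWEAK minus control difference on the log2 scale (x axis) for the 34 genes and the 7 lists of other pathway genes (y axis, genes measured in brackets). Each point is a gene, placed at random within its row, red where limma's adjusted p was under 0.05, and black bars are medians. The bars lie at -0.16 for other beta-oxidation enzymes, -0.15 for the tricarboxylic acid cycle list and 0.06 for uptake and binding.

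All 10 NF-kB genes, listed as TWEAK response genes for a check of the treatment, rose by limma's test, with a median difference of 1.22. They were listed with earlier results of these data known, so the count is not an independent check. Traf1, Vcam1 and Map3k14, those of smallest p, each passed in 13 of 14 alternative fits, with a highest adjusted p of 0.0564 in limma. Of all genes 1.28% were called higher. Of 17 proximal tubule markers, 8 lay above the median of all genes and 1, Kap, below the lower quartile. The transcription factor Pax8 and the cadherin Cdh16 lay above the upper quartile and the endocytic receptor Lrp2 at 8.45, while Slc34a1, Anpep and Slc22a6 lay at 6.25, 5.09 and 5.18 beside a median gene at 6.32, and the files hold no detection call. Limma passed 0 of these 17. By unadjusted p alone 3 were higher (17.6%) and 2 lower (11.8%), against 8.15% and 13.1% of all genes. Of 6 epithelial markers, Krt18, Krt19 and Krt8 lay at 10.94, 8.98 and 7.33. Cdh1, Epcam and Ocln lay at 5.76, 5.02 and 4.09, below the median gene. Of 34 markers of leukocytes, endothelium, fibroblasts with pericytes, distal nephron with podocytes, and fat with muscle, 0 lay above the upper quartile. Limma passed 0 of them, and at an unadjusted p under 0.05 1 was higher (2.94%, against 8.15% of all genes). Their median difference was 0.10. Of these 34, 6 lay above the median gene, among them Col1a1 at 7.46, Acta1 at 6.97, Aqp2 at 6.96 and Cd68 at 6.84, and 11 below the lower quartile of 4.87, among them Ptprc, which defines leukocytes, at 4.45. Their mean level on the arrays ranged from 5.24 to 5.41 in control and 5.34 to 5.47 under TWEAK. Their part in the results was not tested.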

How the data were processed

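RNA of 6 cultures was read on Affymetrix arrays. The deposited values are log2 intensities per probe set, which the authors made by RMA. The program, per the submitters' processing notes, was Affymetrix Expression Console. Its version is not given in the sources used here, nor is a genome build. The authors' deposited table also holds a ratio (TWEAK over control), a p-value and a false discovery rate per probe set. Its p-values and false discovery rates matched an unblocked limma fit of all probe sets, and how its ratio was made is not given in the sources used here.

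The 28361 probe sets were reduced to 22061 named genes, 25465 of them having 1 symbol, 2 several and 2894 none, which were left out. Symbols were updated through RefSeq accessions for 22115 probe sets, symbols for 1815 and synonyms for 625, and 910 kept the symbol of the table. Each gene took its brightest probe set, and the difference was tested with limma 3.58.1 in R 4.3.3 (lmFit and eBayes, no covariate), taking an adjusted p (Benjamini-Hochberg, all genes together) under 0.05 as a call. The script was tested on simulated data. The 34 genes, the 7 lists and the 10 TWEAK response genes were chosen with earlier results of these data known. All 34 genes are named. Values of every array are given for those at an unadjusted p under 0.05 or without overlap at a difference over 0.5, and for Ppargc1a, Ppara and Pdk4. Of each list up to 3 genes of smallest p are named, some items are not reported here, and marker genes were named after their values were seen. The p-values measure the spread between these arrays, whose number limits the precision. The files hold no batch, scan date or detection call. Alternatives were a replicate block, trend and robust eBayes, brighter genes, other probe set rules, centring, cyclic loess, array weights and each array left out.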

Additional observations from a re-analysis of the deposited data

How the results depend on the processing

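Of 808 values of single genes under 14 alternatives, 786 kept their sign, 22 reversed, 68 lost a call and 40 gained one. The 3 calls among the 34 genes (2 lower, 1 higher) became 1 with a replicate block (1 lower, 0 higher) and 4 with trend and robust eBayes (3 lower). They became 5 of the 31 tested among brighter genes (4 lower) and 10 with array weights (9 lower). Over all probe sets and after cyclic loess they became 2, of which 1 was lower. The 661 calls over all genes became 207 with the block (85 lower, 122 higher) and 1020 of the 11030 brighter genes (643 lower). They became 107 over all probe sets (29 lower, 78 higher), 252 after cyclic loess (69 lower, 183 higher) and 3223 with array weights (2109 lower, 1114 higher). The 7 calls in the other lists became 1 with the block, 13 with trend and robust eBayes and 17 of the 119 tested among brighter genes. They became 3 after cyclic loess and 41 with array weights. With each array left out these counts ranged from 0 to 9 for the 34 genes (lower 0 to 8, higher 0 to 1), from 1 to 1876 for all genes (lower 0 to 1412, higher 1 to 464) and from 0 to 25 for the lists, and the median member difference from -0.12 to -0.06.

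The reversed differences all belonged to genes that did not pass. With array weights Acaa1a was at -0.0064, Pdk4 at 0.0199 and Sirt3 at -0.019. Centred arrays gave 0.0099 for Acads and 0.0015 for Pdk4, and cyclic loess -0.0029 for Etfb and 0.0155 for Pdk4. With each array left out, Acaa1a ranged from -0.0347 to 0.189, Acads from -0.131 to 0.0874, Acadvl from -0.105 to 0.0048, Esrra from -0.0098 to 0.151, Etfb from -0.0359 to 0.112, Pdk4 from -0.327 to 0.263, Ppara from -0.0808 to 0.0204 and Sirt3 from -0.100 to 0.0938. The causes were not tested.

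The replicate numbers matched the arrays only in part: deviations of same-numbered arrays correlated at 0.196, 0.359 and -0.0716. TWEAK 1 and TWEAK 2 correlated best with the control array of their own number, and TWEAK 3 with control 1 (0.288). Whether a number marks a shared experiment is not given in the sources used here. With the block, Cpt1a had an adjusted p of 0.0358, Ppard 0.0553 and Acadm 0.0636. The alternative with brighter genes gave no value for Ppargc1a, Ppara, Cd36 and Fabp4. Intervals of the 34 differences had a median half-width of 0.25, so smaller differences could go unseen. Larger differences also failed the adjusted test, among them those of Ppargc1a at -0.76 and Acsl3 at -0.74.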
